A study of Homo sapiens with 8 samples.

Results

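The genes described here are transcription factors of the FOS, JUN, EGR, ATF, CREB, MAF, KLF and ETV families, the IER genes, and the DUSP and SPRY genes. The set takes in immediate early genes and genes that feed back on mitogen-activated protein kinases (MAPKs), but not every gene in it is either. The genes were picked by a match of the gene symbol, leaving out ATF4, with earlier results of these data known. They came to 85 of the 14884 named genes on the arrays. Of the 85, CEBPA-DT, JUN-DT and KLF3-AS1 are non-coding transcripts next to a family gene, and IER3IP1 shares only the letters of the IER genes. The others fall into 10 groups. NR4A, BATF, SPRED, PHLDA and the protein-coding C/EBP genes are not analysed here.

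Immediate early genes are transcribed within minutes of a growth factor, cytokine or stress signal, without new protein synthesis. The RAS-ERK cascade phosphorylates ternary complex factors that sit with the serum response factor SRF on CArG boxes of genes such as EGR1 and FOS, and CREB drives others through the cAMP response element. Dual-specificity phosphatases (DUSPs) that remove phosphate from MAPKs, and Sprouty proteins that dampen receptor tyrosine kinase signalling, are induced by the same signals and close a negative feedback loop. In monocytic cells, EGR1 and several KLF factors also take part in differentiation towards macrophages.

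Expression was measured on 8 Affymetrix arrays of THP-1, an established monocytic leukaemia cell line with an MLL-AF9 fusion. Cells received IPA-3, an allosteric inhibitor of p21-activated kinases (PAKs), at 6 µg/mL (2 arrays), FRAX-597, which competes with ATP at group I PAKs, at 2 µg/mL (2 arrays), or the solvent DMSO in equal volume (4 arrays), all for 5 h. The study concerned PAK1 as a target in acute myeloid leukaemia. All cells came from the same line. Nothing in the labels marks the replicates as separate cultures, and the p-values therefore describe array-to-array spread that may be only technical. In such bulk RNA, fewer cells expressing a gene and less of its RNA per cell cannot be told apart.

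Values are log2 expression as deposited, and levels of different genes are not compared, because probes differ in brightness. The arrays lay on 2 scales: medians over all probes were 5.51 to 5.55 in DMSO 1 and 2 and IPA-3 1 and 2, and 6.00 to 6.05 in DMSO 3 and 4 and FRAX-597 1 and 2. Each compound was therefore compared with the DMSO arrays on its own scale, IPA-3 with DMSO 1 and 2 and FRAX-597 with DMSO 3 and 4. Of the 85 genes, DUSP21 alone had arrays under the lower quartile of all probes, 6 of 8. All 5 measured monocytic markers (CD14, LYZ, CSF1R, MPO and CTSG) lay above the median of all probes on all 8 arrays, as did 1 of 2 T cell markers (CD8A), 3 of 4 epithelial markers (KRT8, KRT18 and KRT19) and 0 of 1 fibroblast marker. A gene was called at a Benjamini-Hochberg adjusted p under 0.05 in limma, adjusted over all 14884 genes. With 2 arrays against 2, an exact two-sided permutation test of a single gene cannot give a p under 0.333, so non-overlap of the arrays is described without a test.

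The first comparison asked what IPA-3 did to these genes. EGR1, FOS and EGR3 lay lower in both IPA-3 arrays than in both of their DMSO arrays, while DUSP4, DUSP8, FOSL1, IER5, JUND and MAFG lay higher. None of the 85 passed the adjusted threshold: 0 were called in limma, against 5 of all genes (0.0336%). At an unadjusted p under 0.05 there were 7 higher and 7 lower, 8.24% each, against 3.10% and 4.11% of all genes. Both IPA-3 arrays lay above both DMSO arrays for 25 of the 85 (19.3% of all genes) and below them for 19 (28.3% of all genes). Of the 85 genes 48 had a change above 0 (44.4% of all genes), and the median log2 change was 0.02, against -0.02 over all genes.

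EGR1 is a zinc finger factor and a standard readout of ERK activity. Its probe (16989736) read 9.33 and 9.32 in DMSO 1 and 2, and 8.41 and 8.33 in IPA-3 1 and 2. Both IPA-3 values lay far outside the 0.01 that separated the DMSO arrays, and the change was the lowest of the 85. The log2 change was -0.96 (SE 0.16, 95% interval -1.33 to -0.59), which is 1.94-fold lower (limma unadjusted p = 0.000412, adjusted p = 0.256). A dimmer EGR1 probe (17000463) had a change of -0.52. EGR3, a paralogue that EGR1 inducers also switch on, read 6.41 and 6.43 in DMSO and 5.97 and 6.10 in IPA-3. Its change was -0.38 (SE 0.15; limma unadjusted p = 0.0346, adjusted p = 0.654). The third measured paralogue, EGR4, had a log2 change of 0.00 (95% interval -0.36 to 0.36).

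The AP-1 genes, whose FOS and JUN proteins dimerise on the same DNA element, did not share a direction. FOS (probe 16786587) read 8.91 and 9.07 in DMSO and 8.31 and 8.04 in IPA-3, and the groups did not overlap. The log2 change was -0.81 (SE 0.23; limma unadjusted p = 0.0082, adjusted p = 0.53). A dimmer FOS probe (16794955) had a change of 0.01, so the 2 probes of this gene disagreed. FOSL1, or FRA1, a FOS relative that accumulates when ERK stays active, read 6.96 and 7.19 in DMSO and 7.81 and 7.88 in IPA-3. FOSL1 was thus higher in both treated arrays, by 0.77 (SE 0.13; limma unadjusted p = 0.000578, adjusted p = 0.257). JUND, the JUN protein of resting cells, read 7.75 and 7.86 in DMSO and 8.23 and 8.47 in IPA-3, a change of 0.55 (SE 0.19; limma unadjusted p = 0.0215, adjusted p = 0.615). FOSL2 had a change of -0.39 (limma unadjusted p = 0.0295), JUN of 0.48, FOSB of 0.12 and JUNB of -0.11, the last 3 with an unadjusted p over 0.05.

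Among the feedback phosphatases, all 10 typical MAPK phosphatases were measured, 7 of them above 0 and 3 below. DUSP4, a nuclear phosphatase induced by ERK, had the highest change of the 85. Its probe (17075973) read 5.74 and 6.21 in DMSO 1 and 2, and 7.26 and 7.40 in IPA-3 1 and 2. Both IPA-3 arrays were more than 1 log2 unit above both DMSO arrays, and the change was 1.36 (SE 0.56, 95% interval 0.05 to 2.66; limma unadjusted p = 0.0435, adjusted p = 0.675). Its SE also draws on the spread within DMSO 3 and 4, which read 7.71 and 6.39, and within FRAX-597 1 and 2, which read 10.04 and 8.45. DUSP8, which acts on JNK and p38, read 5.85 and 6.10 in DMSO and 6.83 and 6.72 in IPA-3, a change of 0.80 (SE 0.24; limma unadjusted p = 0.012, adjusted p = 0.57). DUSP16, another JNK and p38 phosphatase, had a change of 0.40 (SE 0.12; limma unadjusted p = 0.0124). DUSP10, also of that class, read 9.32 and 9.39 in DMSO and 8.58 and 8.61 in IPA-3, a change of -0.76 (SE 0.35; limma unadjusted p = 0.0665). The ERK phosphatase DUSP6, a common marker of ERK output, had a change of 0.01 and its relative DUSP7 of 0.02.

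In the remaining groups 5 genes had an unadjusted p under 0.05 with IPA-3. IER5, a stress-inducible gene, read 6.71 in both DMSO arrays and 7.53 and 7.40 in IPA-3, a change of 0.75 (SE 0.21; limma unadjusted p = 0.00845, adjusted p = 0.53). MAFG, a small MAF protein that pairs with NRF2, had a change of 0.52 (SE 0.12; limma unadjusted p = 0.0032, adjusted p = 0.472). The other 3 MAF genes ran from -0.14 (MAF) to -0.06 (MAFF). The 17 KLF genes ran from -0.44 (KLF8; limma unadjusted p = 0.011) to 0.22 (KLF14), with 11 above 0. KLF2, a quiescence factor of myeloid and lymphoid cells, read 7.11 and 7.26 in DMSO and 7.45 and 7.30 in IPA-3, a change of 0.19 (95% interval -0.40 to 0.78; limma adjusted p = 0.931). The 12 ATF and CREB genes ran from -0.42 (CREB3L4) to 0.42 (CREM), the 8 ETV genes from -0.12 (ETV4) to 0.26 (ETV6), and the 3 SPRY genes from -0.04 (SPRY3) to 0.17 (SPRY2). Of the 14 other DUSP genes, most of which are not MAPK-specific, DUSP19 was lowest at -0.47 (SE 0.13; limma unadjusted p = 0.00906) and DUSP21 highest at 0.12. DUSP23 had a change of -0.30 (limma unadjusted p = 0.0453).

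Each gene's spread came from all 8 arrays. The 7 higher genes at an unadjusted p under 0.05 became 3 without DMSO 1 or without IPA-3 1, and the 7 lower became 4 without DMSO 1, 3 without DMSO 2 and 1 without IPA-3 2. Fitted on DMSO 1, DMSO 2, IPA-3 1 and IPA-3 2 alone, limma called 4 of the 85 genes (0.645% of all genes): EGR1 and DUSP10 lower, DUSP4 and IER5 higher.

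**Figure D1:**
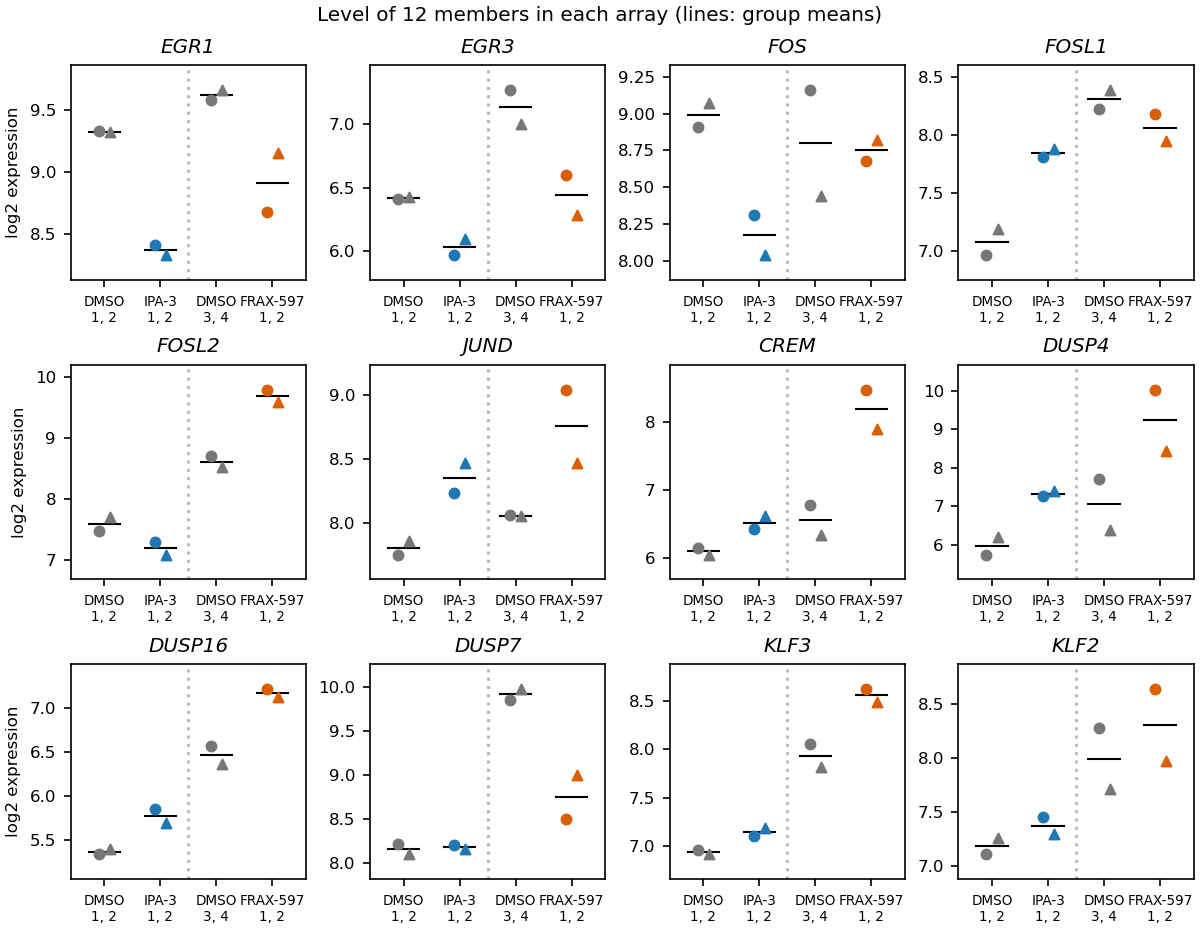
Log2 expression (y axis) of 12 of the 85 genes in each of the 8 arrays. Circles and triangles are the lower- and higher-numbered array of a group, horizontal lines are group means, and the dotted line divides the array sets, whose scales differ. EGR1 and EGR3 lie lower and DUSP4, DUSP16, CREM, JUND and KLF3 higher in both arrays of each compound than in its own DMSO arrays.

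The next comparison asked what FRAX-597 did. DUSP4, CREM, FOSL2, DUSP16, JUND and KLF3 lay higher in both FRAX-597 arrays than in DMSO 3 and 4, and DUSP7, EGR1 and EGR3 lay lower. Again 0 of the 85 were called in limma, against 23 of all genes (0.155%). The lowest adjusted p was 0.0573, for CREM and FOSL2. At an unadjusted p under 0.05 there were 10 higher and 3 lower, 11.8% and 3.53%, against 4.04% and 3.61% of all genes. Both FRAX-597 arrays lay above both DMSO arrays for 19 genes, or 22.4% (13.0% of all genes), and below for 12, or 14.1% (17.8% of all genes). Of the 85 genes 57 were above 0 (45.3% of all genes) and the median was 0.09, against -0.02 over all genes. This shift depended on FRAX-597 1: without that array the median change was -0.01, and without FRAX-597 2 it was 0.17. The median level of the 85 was 7.48 and 7.34 in DMSO 3 and 4, and 8.01 and 7.46 in FRAX-597 1 and 2. Without FRAX-597 2, limma called 11 of the 85 genes, 9 higher and 2 lower (1.53% of all genes), and without any of the other 7 arrays it called 0. With DMSO 3 and FRAX-597 1, and DMSO 4 and FRAX-597 2, as blocks, limma called 8 (1.36% of all genes), but the labels give no such pairs and they were chosen from these same values.

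EGR1 read 9.58 and 9.66 in DMSO 3 and 4, and 8.68 and 9.15 in FRAX-597 1 and 2. Both treated arrays were lower, the first by more. The log2 change was -0.70 (SE 0.16, 95% interval -1.08 to -0.33; limma unadjusted p = 0.00257, adjusted p = 0.241), or 1.63-fold lower. The dimmer EGR1 probe had a change of -0.31. EGR3 read 7.27 and 7.0 in DMSO and 6.60 and 6.29 in FRAX-597, a change of -0.69 (SE 0.15; limma unadjusted p = 0.00194, adjusted p = 0.219). EGR4 had a change of 0.07 (95% interval -0.29 to 0.43).

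Of the 7 FOS and JUN genes, FOSL2 and JUND had an unadjusted p under 0.05. FOSL2, or FRA2, read 8.70 and 8.52 in DMSO and 9.79 and 9.59 in FRAX-597. All 4 arrays of its comparison were tight within their groups, and the change was 1.08 (SE 0.15, 95% interval 0.74 to 1.42; limma unadjusted p = 0.000111, adjusted p = 0.0573), or 2.11-fold higher. JUND read 8.06 and 8.05 in DMSO and 9.04 and 8.47 in FRAX-597, a change of 0.70 (SE 0.19; limma unadjusted p = 0.00691, adjusted p = 0.355). FOS overlapped between groups, at 9.16 and 8.44 in DMSO and 8.68 and 8.82 in FRAX-597, with a change of -0.05 (95% interval -0.58 to 0.48). JUN, JUNB and FOSB had changes of 0.51, 0.59 and 0.16, and FOSL1 of -0.25, each with an unadjusted limma p over 0.05. JUN read 8.44 and 7.84 in DMSO and 9.51 and 7.79 in FRAX-597, so its rise lay in FRAX-597 1. JUNB read 9.01 and 8.77 in DMSO and 10.08 and 8.88 in FRAX-597, which overlap.

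CREM encodes activators and repressors that bind the cAMP response element, among them the short inducible repressor ICER, made from an internal start. Its probe (16703858) read 6.78 and 6.34 in DMSO and 8.47 and 7.89 in FRAX-597. The groups lay more than 1 log2 unit apart, and the change was 1.62 (SE 0.22, 95% interval 1.11 to 2.14; limma unadjusted p = 0.000116, adjusted p = 0.0573), or 3.08-fold higher. A gene-level probe does not tell its isoforms apart. The other 11 ATF and CREB genes ran from -0.37 (CREB3L3) to 0.76 (ATF3), and none of them had an unadjusted p under 0.05. ATF3, a stress-induced repressor, read 6.48 and 6.59 in DMSO, 8.26 in FRAX-597 1 and 6.33 in FRAX-597 2. The difference thus lay in 1 array.

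DUSP4 read 7.71 and 6.39 in DMSO 3 and 4, and 10.04 and 8.45 in FRAX-597 1 and 2. Both treated arrays lay above both controls, and the arrays differed by 1.32 within DMSO and by 1.58 within FRAX-597. The change was 2.19 (SE 0.56, 95% interval 0.89 to 3.50; limma unadjusted p = 0.00501, adjusted p = 0.322), or 4.58-fold higher, the highest of the 85. DUSP7, a cytoplasmic ERK phosphatase, read 9.86 and 9.98 in DMSO and 8.50 and 9.0 in FRAX-597. Its change was -1.18 (SE 0.17, 95% interval -1.57 to -0.79; limma unadjusted p = 0.000154, adjusted p = 0.0674), or 2.26-fold lower, the lowest of the 85. DUSP16 read 6.57 and 6.36 in DMSO and 7.21 and 7.12 in FRAX-597, a change of 0.71 (SE 0.12; limma unadjusted p = 0.000517, adjusted p = 0.142). DUSP6 read 8.89 and 8.38 in DMSO and 8.27 and 8.15 in FRAX-597, with a change of -0.42 (95% interval -0.89 to 0.04; limma adjusted p = 0.71). The remaining typical MAPK phosphatases were DUSP1 (0.76), DUSP10 (0.54), DUSP2 (0.23), DUSP8 (0.04), DUSP9 (-0.11) and DUSP5 (-0.15), each with an unadjusted p over 0.05. The 14 other DUSP genes ran from -0.14 (DUSP23) to 0.39 (DUSP14).

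KLF factors bind GC-rich and CACCC sequences, some as activators and others as repressors. Of 17, 11 lay above 0 (45.3% of all genes), and 5 were higher at an unadjusted p under 0.05 (4.04% of all genes). KLF3, a repressor that recruits CtBP, read 8.05 and 7.82 in DMSO and 8.62 and 8.49 in FRAX-597, a change of 0.62 (SE 0.12; limma unadjusted p = 0.0011, adjusted p = 0.195). KLF10 and KLF11, TGF-beta-inducible repressors, had changes of 0.59 (limma unadjusted p = 0.0275) and 0.61 (limma unadjusted p = 0.0181), KLF7 of 0.48 and KLF12 of 0.30. KLF2 read 8.28 and 7.71 in DMSO and 8.64 and 7.97 in FRAX-597, which overlap, with a change of 0.30 (95% interval -0.29 to 0.90; limma adjusted p = 0.895). KLF6 ranged from 8.08 to 9.03 in DMSO and from 8.48 to 9.95 in FRAX-597, a change of 0.66 (SE 0.48). KLF16 was the lowest of the family at -0.37.

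The last groups showed no unadjusted p under 0.05 with FRAX-597. The 8 ETV genes ran from -0.21 (ETV3L) to 0.61 (ETV5), the 3 IER genes from 0.17 (IER2) to 0.52 (IER3), the 4 MAF genes from 0.00 (MAFA) to 0.25 (MAFG), and the 3 SPRY genes from 0.09 (SPRY2) to 0.25 (SPRY3). IER3 had 11 probes, of which the brightest was used. That probe read 6.94 and 6.95 in DMSO and 8.01 and 6.92 in FRAX-597, so its rise lay in FRAX-597 1. FRAX-597 changes over the 11 probes ran from 0.27 to 0.73. The IPA-3 changes ran from -0.31 to 0.43 and so differed in sign between probes. Many of the 11 shared the same mean and the same changes, so they do not count as 11 separate measures. The 4 genes outside the families by function ran from -0.17 (IER3IP1) to 0.00 (CEBPA-DT).

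**Figure D2:**
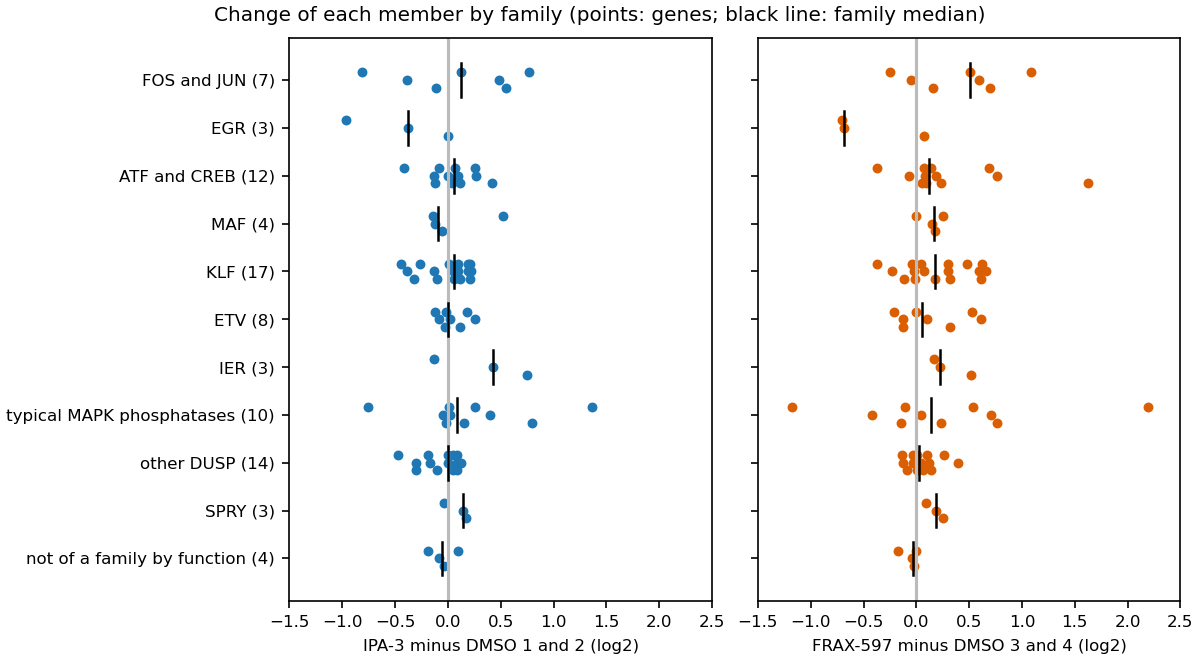
Log2 change (x axis) of each of the 85 genes, by family, with IPA-3 on the left and FRAX-597 on the right; points are genes, black lines are family medians and numbers in brackets are genes per family. The typical MAPK phosphatases spread most widely with FRAX-597, from -1.18 to 2.19, and the other DUSP genes stay between -0.14 and 0.39.

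Set side by side, the compounds were compared gene by gene. Both arrays of each compound lay above their own DMSO arrays for 9 genes, namely CREM, DUSP4, DUSP16, JUND, KLF3, KLF10, KLF11, KLF12 and MAFG, or 10.6% of the 85 against 3.16% of all genes. Both lay below for EGR1, EGR3, DUSP23 and KLF16, or 4.71% against 5.97% of all genes. The compounds lay on opposite sides of their DMSO arrays for 7 genes, or 8.24% against 5.91% of all genes. Across the 85 genes the changes with IPA-3 and FRAX-597 had Pearson's r = 0.43 and Spearman's rho = 0.33, against 0.19 and 0.11 over all genes. DUSP4, the highest with each compound (1.36 and 2.19), weighs heavily on r, which was not recomputed without it. The comparisons share no array, but genes are not independent replicates, so no p is given.

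The difference between the compounds was also tested, as the FRAX-597 change minus the IPA-3 change, with the doses of 6 and 2 µg/mL unequal. Of the 85 genes 0 were called, against 2 of all genes (0.0134%). At an unadjusted p under 0.05, 7 were higher with FRAX-597 (3.43% of all genes) and 3 lower (2.67% of all genes). FOSL2 differed by 1.47 (SE 0.21, 95% interval 0.99 to 1.95; limma unadjusted p = 0.000141, adjusted p = 0.186), being lower with IPA-3 and higher with FRAX-597 in all arrays. FOSL1 ran the other way, by -1.02 (SE 0.19; limma unadjusted p = 0.000875, adjusted p = 0.385). DUSP7 differed by -1.19 (SE 0.24; limma unadjusted p = 0.00124, adjusted p = 0.428), CREM by 1.21 (SE 0.31; limma unadjusted p = 0.00552, adjusted p = 0.596) and DUSP10 by 1.30 (SE 0.50; limma unadjusted p = 0.0337, adjusted p = 0.776). The others were FOS (0.77), KLF7 (0.87), DUSP19 (0.72), KLF3 (0.41) and KLF15 (-0.42). For EGR1 the difference was 0.25 (limma adjusted p = 0.94) and for DUSP4 0.84 (limma adjusted p = 0.944). Without FRAX-597 2 the difference was -1.44 for DUSP7 and 1.93 for DUSP10. DUSP10 read 10.31 and 9.92 in DMSO 3 and 4, and 11.28 and 10.03 in FRAX-597 1 and 2, so these groups overlapped. Over the alternatives the DUSP10 difference ran from 0.68 to 1.93.

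**Figure D3:**
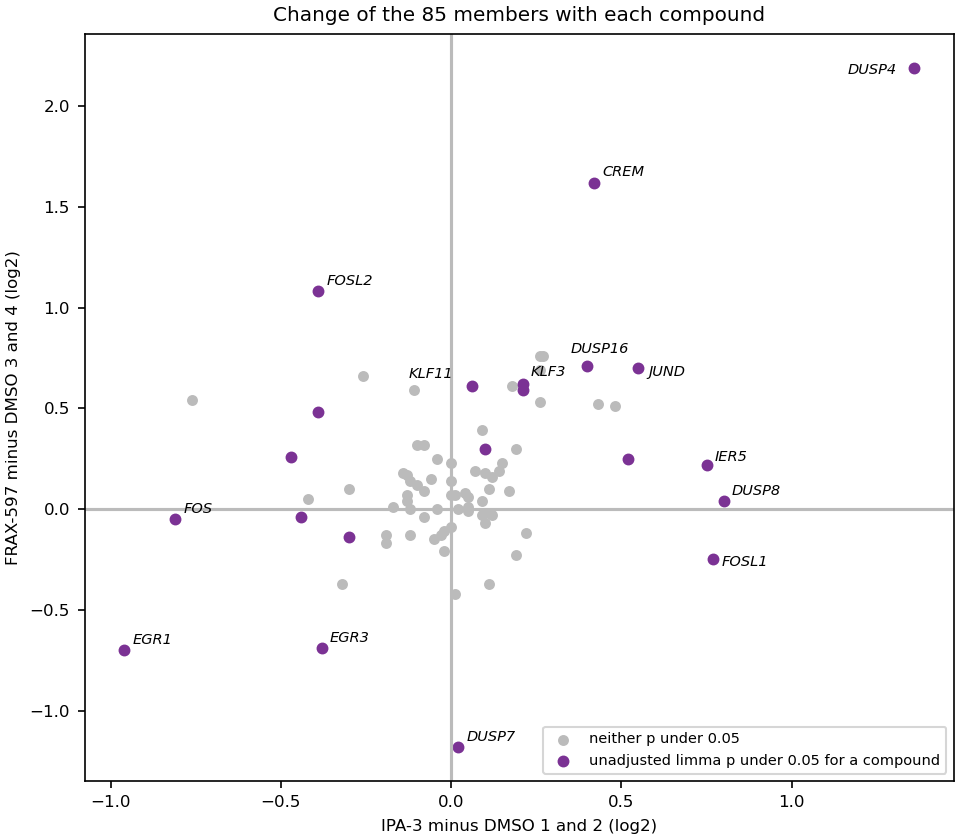
Log2 change with IPA-3 (x axis) against log2 change with FRAX-597 (y axis), each against its own DMSO arrays; each point is 1 of the 85 genes, purple where either compound had an unadjusted limma p under 0.05. DUSP4 lies at the upper right (1.36 and 2.19), EGR1 at the lower left (-0.96 and -0.70), and FOSL2 at the upper left (-0.39 and 1.08).

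Several of these genes also differed between replicate arrays of the FRAX-597 comparison. DMSO 3 exceeded DMSO 4 by over 0.5 log2 units for 14 of the 85 genes, or 16.5% (6.25% of all genes), and FRAX-597 1 exceeded FRAX-597 2 by that much for 26, or 30.6% (8.03% of all genes). Both held for 11, or 12.9% (3.57% of all genes): ATF5, CREB3, DUSP1, DUSP4, ETV5, ETV7, JUN, KLF2, KLF6, KLF9 and MAF. MAF, a macrophage differentiation factor, read 8.20 in DMSO 3 and 5.89 in DMSO 4, and 8.23 and 6.21 in FRAX-597 1 and 2. DUSP1, a phosphatase induced by stress and glucocorticoids, read 8.44 and 7.38 in DMSO and 9.43 and 7.91 in FRAX-597. For these 2 genes the arrays of a group lay further apart than the group means, whose changes were 0.18 and 0.76. Across the 85 genes the 2 within-group differences had r = 0.63 and rho = 0.51, close to the 0.65 and 0.53 over all genes. In the IPA-3 comparison, counted in either direction, 0 genes differed by over 0.5 between DMSO 1 and 2 (1.75% of all genes). Between IPA-3 1 and 2 the count was 2 (3.30% of all genes). The FRAX-597 counts above took 1 direction only, so the shares of the comparisons are not on the same measure. In the fit with these pairs as blocks, the FRAX-597 change of DUSP4 was again 2.19, with an SE of 0.16 in place of 0.56, and that of CREM was again 1.62, with an SE of 0.11 in place of 0.22. Because the pairs were chosen from these values, the smaller SE is no separate support.

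**Figure D4:**
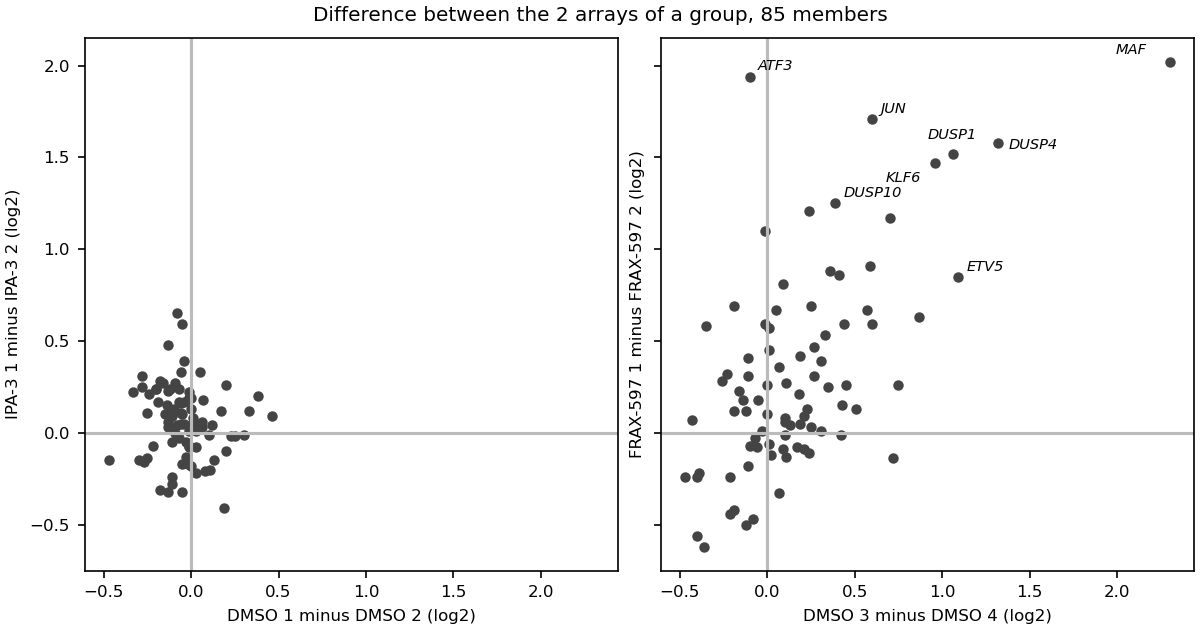
Difference between the 2 arrays of a group in log2 units, for the 85 genes: DMSO (x axis) against IPA-3 (y axis) on the left, and DMSO against FRAX-597 on the right, with equal axes. The left cloud stays near 0, while on the right MAF (2.30 and 2.02), DUSP4 (1.32 and 1.58) and DUSP1 (1.06 and 1.52) lie high on both axes.

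Other genes of the pathway were counted from 3 lists: MAPK cascade genes, SRF and its cofactors, and further immediate early genes. The cascade list holds kinases and also adaptors, exchange factors, RAS and RAS inhibitors such as NF1 and RASA2, so its counts give no direction of signalling. Of 30 measured cascade genes 0 were called with either compound. With IPA-3, 0 were higher and 3 lower at an unadjusted p under 0.05 (GRB2, MAP3K5 and MAP2K6), against 3.10% and 4.11% of all genes. With FRAX-597, 7 were higher and 0 lower, against 4.04% and 3.61% of all genes. MAP2K6, a kinase of p38, read 6.94 and 7.10 in DMSO and 6.08 and 5.37 in IPA-3, a change of -1.30 (SE 0.23; limma adjusted p = 0.257). In the FRAX-597 set it read 6.49 and 6.42 in DMSO and 7.36 and 7.68 in FRAX-597, a change of 1.06 (SE 0.23; limma adjusted p = 0.22). KSR1, a scaffold of the ERK cascade, read 8.28 and 8.24 in DMSO and 8.99 and 9.66 in FRAX-597, 1.07 higher on average (SE 0.20; limma adjusted p = 0.192).

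Of 8 measured genes of the SRF list 0 were called, with ETS2 (0.68) higher and MRTFA (-0.32) lower with FRAX-597 at an unadjusted p under 0.05, and none with IPA-3. Of 29 measured further immediate early and ERK-output genes 0 were called. Their median log2 change was 0.20 with IPA-3 and 0.41 with FRAX-597, against -0.02 over all genes for each. With FRAX-597, 9 were higher and 1 lower at an unadjusted p under 0.05 (4.04% and 3.61% of all genes), and with IPA-3, 3 and 0 (3.10% and 4.11% of all genes). The FRAX-597 arrays differed for several genes of this list. FRAX-597 1 minus FRAX-597 2 was 5.17 for CXCL8, 1.76 for ZBTB10 and 0.99 for LIF, but -1.57 for HBEGF. The median of this list was not recomputed without FRAX-597 1, so its dependence on that array was not tested. NAB2, a corepressor that EGR1 induces and that binds EGR proteins, read 8.70 and 8.02 in DMSO and 9.74 and 9.07 in FRAX-597, a change of 1.04 (SE 0.27; limma adjusted p = 0.328). Its relative NAB1 had a change of 0.56. With IPA-3 the changes were 0.56 for NAB2 and 0.34 for NAB1 (limma adjusted p = 0.717 for each). For both compounds, both arrays lay above their DMSO arrays for NAB2 and NAB1 and below them for EGR1 and EGR3. HBEGF, a ligand of the EGF receptor, stood 1.58 higher (SE 0.47; limma adjusted p = 0.419), and MYC was the lower one, at -0.87 (SE 0.15; limma adjusted p = 0.132).

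Promoter windows of 250 bases upstream of annotated starts were taken from RefSeq (GRCh38.p14) by gene identifier, and 68 of the 85 genes had one or more, 109 windows in all. The windows below show where the motifs named above lie in 3 genes whose arrays did not overlap with either compound: EGR1 (lower), and CREM and JUND (higher). Each is written 5′ to 3′ on the gene's strand and ends at the base before the start. Capitals mark a CArG box in EGR1, the cAMP response element TGACGTCA and the ETS motif GGAAGT in CREM, and TGACGTCA in JUND. The CREM window is that of an internal start, 1 of 7 for this gene.

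EGR1 (chr5:138465229-138465478, plus strand): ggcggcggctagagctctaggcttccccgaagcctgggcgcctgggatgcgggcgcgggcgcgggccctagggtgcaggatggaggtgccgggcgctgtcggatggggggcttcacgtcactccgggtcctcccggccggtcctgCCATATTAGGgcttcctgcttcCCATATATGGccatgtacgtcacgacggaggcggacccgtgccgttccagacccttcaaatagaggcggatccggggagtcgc
CREM (chr10:35195652-35195901, plus strand): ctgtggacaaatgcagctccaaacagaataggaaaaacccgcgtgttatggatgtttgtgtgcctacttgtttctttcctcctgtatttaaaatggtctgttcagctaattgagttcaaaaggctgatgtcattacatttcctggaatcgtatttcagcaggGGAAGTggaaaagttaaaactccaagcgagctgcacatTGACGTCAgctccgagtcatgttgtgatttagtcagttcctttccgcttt
JUND (chr19:18281623-18281872, minus strand): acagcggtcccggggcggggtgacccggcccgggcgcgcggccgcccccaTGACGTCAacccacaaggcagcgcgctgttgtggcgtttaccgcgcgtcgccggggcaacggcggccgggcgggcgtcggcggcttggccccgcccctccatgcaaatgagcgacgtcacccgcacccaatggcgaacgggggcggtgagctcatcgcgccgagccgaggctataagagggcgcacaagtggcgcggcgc

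The EGR1 window held 2 CArG boxes, at 105 to 96 and 83 to 74 bases upstream of the start. CArG boxes occurred in the windows of 2 of the 68 genes, or 2.94%, against 1.44% of 27305 genes with windows. In JUND the cAMP response element lay 200 to 193 bases upstream, and in CREM 50 to 43 bases upstream. TGACGTCA occurred in 9 of the 68 genes, or 13.2%, against 2.03% of all genes: CREM, JUND, DUSP1, DUSP8, MAF, MAFF, KLF11, CREB3L2 and ETV2. GGAAGT occurred in 15 genes, or 22.1% (23% of all). The AP-1 element TGANTCA occurred in 4, or 5.88% (8.06% of all), the C/EBP-ATF element TGATGNAAT in 2, or 2.94% (1.09% of all), and the EGR motif GCGTGGGCG in 2, or 2.94% (0.886% of all). All motifs were searched on both strands, none overlapped another in the printed windows, and a match is a description of letters, not of binding. FRAX-597 changes of the 9 genes with TGACGTCA ran from 0.00 (ETV2) to 1.62 (CREM), and IPA-3 changes from -0.14 (MAF) to 0.80 (DUSP8).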

How the data were processed

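Total RNA of THP-1 cells was labelled with biotin and hybridised to whole-transcript Affymetrix arrays, 8 in all. The authors deposited log2 expression values for 53617 probes. Affymetrix Expression Console and Transcriptome Analysis Console were used, per the submitters' processing notes. The summarisation, the normalization and the genome build are not given in the sources used here. Probe coordinates are therefore left out. Arrays have no read depth, and their number limits the precision.

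The platform annotation gave exactly 1 gene for 16098 probes. The other 37519, with no gene name or with more than 1, were left out together and not counted apart. The probe with the highest mean over 8 arrays was kept for 779 genes with more than 1 probe (6 of the 85 genes described), which left 14884 genes. No filter on dim probes was used. Limma 3.58.1 (R 4.3.3; lmFit, eBayes) was fitted on 8 arrays as 4 groups: DMSO 1 and 2, DMSO 3 and 4, IPA-3, FRAX-597. Tests were two-sided, with Benjamini-Hochberg adjustment over all genes. The fit was tested on simulated data with known changes and with noise drawn independently for each array. The within-group differences of DMSO 3 and 4 and of FRAX-597 1 and 2 were correlated, so that test does not bear on the SEs or calls there.

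The genes, lists and tests were chosen with earlier results of these data known, so nothing here is independent of them. The text names EGR1, DUSP4 and KLF2; any called gene; up to 6 changes each way per compound and 4 differences each way at an unadjusted p under 0.05, the former with non-overlapping arrays; the 5 brightest probes (ATF6, ATF2, KLF10, DUSP10, EGR1); and each family's extremes. Genes named beside these were chosen after their values were seen. Alternatives were pooled controls, a replicate block, single array sets, quantile normalization, median centring, the mean over probes, every probe as a feature, no dim genes, an intensity trend, and leaving out each array.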

Additional observations from a re-analysis of the deposited data

Results flagged for a closer look

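Dixon's test over the 4 DMSO arrays passed its 95% critical value for 2 of the 85 genes, and chance flags about 1 in 20 groups. The 4 arrays lie on 2 scales, DMSO 1 and 2 on one and DMSO 3 and 4 on the other, so these ratios mix arrays that are not directly comparable and are given as values only. CREB1 read 8.93 in DMSO 4 and 8.69 to 8.72 in the other DMSO arrays (ratio of gap to range 0.875). KLF11 read 9.23 in DMSO 4 and 8.88 to 8.90 in the others (ratio 0.938).

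For 7 of the 85 genes, or 8.24%, both arrays of one compound lay above their DMSO arrays and both arrays of the other below, against 5.91% of all genes. FRAX-597 was the higher for FOSL2, with a difference of the changes of 1.47, KLF7 (0.87), DUSP19 (0.72) and ATF2 (0.20). IPA-3 was the higher for FOSL1 (-1.02), KLF15 (-0.42) and KLF14 (-0.35). The limma test of these differences gave adjusted p from 0.186 (FOSL2) to 0.916 (ATF2), so 0 of the 7 passed.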

How the results depend on the processing

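Of 33 changes of named genes with an unadjusted limma p under 0.05, 32 kept their direction under each of up to 17 alternatives. The block, the intensity trend, single array sets, every probe as a feature and no dim genes alter only the SE or p, and cannot reverse a change. The single-compound changes among the 33 all had arrays that did not overlap, so leaving out 1 array could not reverse them either. For these, only pooling, quantile normalization, median centring and the mean over probes could do so. The kept directions are thus largely fixed in advance. Among changes outside the 33, DUSP8 with FRAX-597 went from 0.04 to -0.36 without FRAX-597 1. In that fit the difference between compounds went from 0.03 to -0.83 for JUN and from 0.09 to -0.46 for IER3. The exception among the 33 was DUSP16 with IPA-3, which reversed to -0.15 with the 4 DMSO arrays pooled. Pooling mixes the array scales and shifted the median of all genes to -0.26 for IPA-3 and 0.23 for FRAX-597. Pooling also moved the median of the 85 genes to -0.25 for IPA-3 and 0.40 for FRAX-597, the counts at an unadjusted p under 0.05 to 0 higher for IPA-3, and to 20 higher and 1 lower for FRAX-597. Quantile normalization gave a median of 0.05 for IPA-3 and 1 called gene for FRAX-597, FOSL2 (limma adjusted p = 0.0334).

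No replicate number pairs the compounds with DMSO in the labels. With DMSO 3 and FRAX-597 1, and DMSO 4 and FRAX-597 2, as a replicate block chosen from these same values, limma called 2 genes for IPA-3 (DUSP4, EGR1) and 8 for FRAX-597 (CREM, DUSP4, DUSP7, FOSL2, EGR3, DUSP16, KLF3, EGR1), with 72 and 202 of all genes. The block gave 2 calls for the difference (FOSL2, CREM), with 38 of all genes. At an unadjusted p under 0.05 the block gave 21 higher and 6 lower for FRAX-597, and 13 higher and 5 lower for the difference. Fitted on the 4 arrays of a comparison alone, IPA-3 had 4 calls and 11 genes higher at an unadjusted p under 0.05, and FRAX-597 had 6 higher.

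Leaving out 1 array at a time, where a lone array is assumed to vary like the other groups, gave 0 to 1 calls for IPA-3 (EGR1 without FRAX-597 1 or 2), 0 to 11 for FRAX-597 and 0 to 2 for the difference. At an unadjusted p under 0.05 the ranges were 3 to 10 higher and 1 to 9 lower for IPA-3, 8 to 27 higher (27 without FRAX-597 2) and 3 to 8 lower for FRAX-597 (6 without DMSO 4, 8 without FRAX-597 1), and 3 to 18 higher and 2 to 6 lower for the difference (18 higher without FRAX-597 2; 3 or 4 without DMSO 1, 2 or 4 or IPA-3 2; 6 lower without FRAX-597 1). The medians of the 85 genes ran from 0.00 to 0.04 for IPA-3. For FRAX-597 they ran from -0.01 (without FRAX-597 1) to 0.17 (without FRAX-597 2). The cause of these changes was not tested.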
